A study of Drosophila melanogaster with 9 samples.

Results

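Small nuclear RNAs (snRNAs) were followed through ribosomal fractions of adult fly heads. They were taken as all rows of the deposited gene table that the annotation types as snRNA or whose symbol begins with snRNA:, which gave 31 genes of 23932. By class these were 5 genes of U1, 6 of U2, 3 of U4, 7 of U5 and 3 of U6, the 4 minor spliceosomal genes (U11, U12, U4atac and U6atac), U7, 7SK (7SKa) and LU, and they are written here without the prefix snRNA:. The heads came from untreated wild type Dahomey Drosophila melanogaster no older than 5 days, detached from whole frozen flies, so each library pools many animals and all cell types of the head. A detergent lysate made with cycloheximide, which stalls elongating ribosomes, was cleared by centrifugation. RNA was then sequenced from the 80S monosome fractions of a sucrose gradient (single ribosomes), from its polysome fractions (several ribosomes on 1 mRNA), and from a part of the lysate kept back before the gradient (total RNA), with 3 replicates of each.

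The snRNAs are short, stable nuclear RNAs that are not translated. In the major spliceosome, U1 pairs with the 5′ splice site and U2 with the branch point, and U4, U5 and U6 arrive together as the tri-snRNP, in which U4 is base-paired to U6 until the spliceosome is activated. Most snRNAs are made by RNA polymerase II, exported, assembled with a ring of Sm proteins in the cytoplasm and returned to the nucleus, whereas U6 is made by RNA polymerase III, ends in an oligo(U) tail bound by LSm proteins and largely stays in the nucleus. U11, U12, U4atac and U6atac do the corresponding work for the rare minor class of introns, U7 guides the cutting of histone mRNA 3′ ends, and 7SK holds the elongation factor P-TEFb in an inactive complex.

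Total counts lay between 13555484 and 44096558 per library, and snRNA genes held 0.428% ± 0.0539 of the counts in total RNA, 0.105% ± 0.0265 in polysome libraries and 0.0886% ± 0.0225 in those of 80S monosomes (SD, n = 3 each). Ribosomal RNA left after depletion held 0.589% ± 0.151, 1.17% ± 0.56 and 3.98% ± 1.47 in the same order, and its part in the differences between fractions was not tested. Markers of neurons, photoreceptors, glia, fat body and muscle were all above 1 CPM (counts scaled to library size) in their mean, and of the germ line, which a head lacks, 1 of 4 was. Replicate 1 stood apart in both ribosomal fractions by its 7SL RNA, the RNA of the signal recognition particle, which was at 17036 CPM in 80S monosomes against 5144 and 9956 in replicates 2 and 3, and at 9464 CPM in polysomes against 3661 and 3703. Class values whose call or sign changed without either library are given both ways. Levels are shares of a library scaled by TMM, so they say nothing about the amount of RNA in a fraction. In these bulk samples fewer cells of a type and less RNA per cell cannot be told apart. The paper calls the cleared lysate cytoplasmic and the reference total cytoplasmic RNA, and how much nuclear RNA the lysate held was not tested.

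Copies of a class are nearly identical, and the authors split a read that maps to several copies evenly between them, so that 26 of the 31 genes had a count that was not whole in at least 1 library. The copies of each class were therefore summed before the first comparison. Against total RNA, all 8 of 8 classes tested were called lower in 80S monosomes at adjusted p under 0.01 (of the 13055 features in the same table, 8.84% were lower and 6.69% higher). In polysome libraries 6 of 8 were lower than in total RNA (12.1% of all features were, and 10.5% were higher), with the exceptions of U2 and U6. Between polysomes and 80S monosomes 1 of 8 was called, U6, which was higher in polysomes (7.85% of all features were, and 4.34% were lower). These fits do not use the pairing of libraries by replicate number. With that number as a block U6 lost this call (adjusted p = 0.0685) and its call in 80S monosomes against total RNA (0.0492). The other class calls held. Adjusted p-values are those of edgeR's quasi-likelihood test with Benjamini-Hochberg adjustment over the whole table, and both comparisons with total RNA share the same 3 total RNA libraries.

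**Figure D1:**
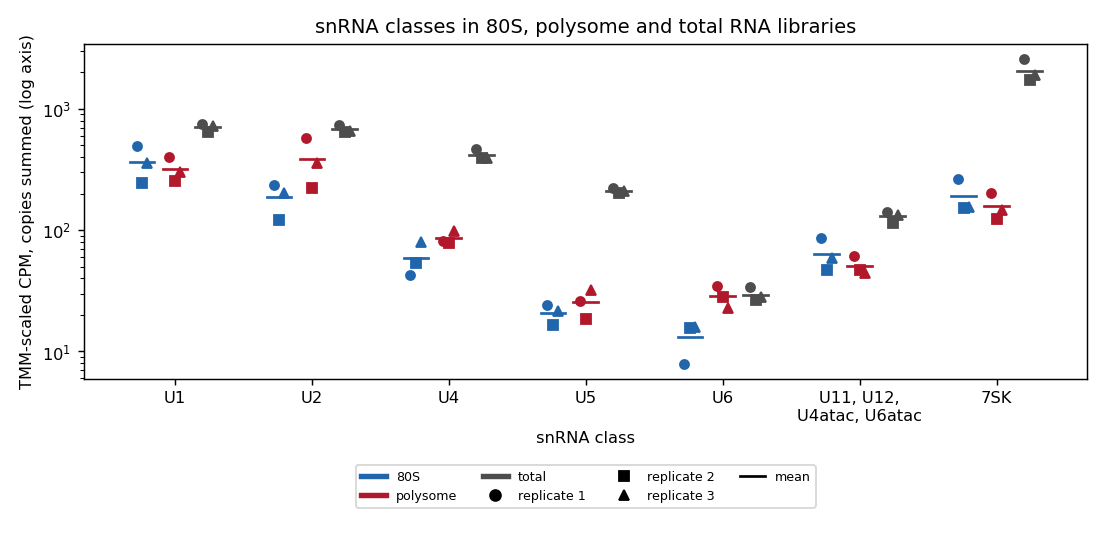
TMM-scaled CPM of each snRNA class (copies summed, log axis) in the 80S monosome, polysome and total RNA libraries, with a symbol for each replicate and a line for the mean of 3. The 3 total RNA libraries lie above all 80S monosome libraries in each class shown, while for U6 the polysome and total RNA libraries overlap; U7 and LU, the rarest, are not drawn.

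7SK, the regulator of P-TEFb, had the most negative class values in both ribosomal fractions. In 80S monosomes, however, U5 (-3.36, SE 0.19) was less than an SE away. 7SK was at 265, 152 and 155 CPM in 80S monosome replicates 1 to 3, at 203, 124 and 145 in the polysome libraries, and at 2566, 1728 and 1909.8 in total RNA. Neither ribosomal fraction overlapped with total RNA. Its log2 fold change against total RNA was -3.44 (SE 0.26, 10.9-fold lower, adjusted p = 1.41e-05) for 80S monosomes and -3.72 (SE 0.27, 13.2-fold lower, adjusted p = 7.31e-06) for polysomes. Between the ribosomal fractions the log2 fold change was -0.28 (SE 0.24, adjusted p = 0.440), and without 80S monosome replicate 1 it was 0.02. The single gene counted, 7SKa, is 444 nt long and lies at 3R:7474553-7474996 on the minus strand, outside other genes. A second copy in the newer annotation, 7SKb, is not analysed here. Counts of 7SKa were not whole in 7 libraries, so some of its reads had other matches, and how far reads of 7SKb entered its level, and so its rank among the classes, was not tested.

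U1 recognizes the 5′ splice site and was the most frequent class in the 80S monosome libraries by counts per length. It was at 494, 245 and 357 CPM in the 80S libraries, 405, 255 and 300.2 in the polysome libraries, and 745, 646 and 717 in total RNA. The libraries of both ribosomal fractions lay below all total RNA libraries, by a smaller step than for 7SK. The log2 fold change against total RNA was -0.94 (SE 0.23, 1.92-fold lower, adjusted p = 0.00939) in 80S monosomes and -1.14 (SE 0.23, 2.20-fold lower, adjusted p = 0.00271) in polysomes. The former lies at the threshold and was lost in 6 of the 9 fits that leave out a library: 80S monosome replicate 2 (-0.73, adjusted p = 0.0192) or 3 (-0.93, 0.0322), polysome replicate 3 (-0.95, 0.0163) and total RNA replicate 1, 2 or 3 (-0.89, -1.04 and -0.98, with 0.0327, 0.0168 and 0.0249). It was also lost under both other scalings and both other filters on low counts (-0.97 to -0.92). The latter was lost without polysome replicate 3 (-1.10, adjusted p = 0.0144) or total RNA replicate 1 or 3 (-1.02 and -1.12, with 0.0140 and 0.0107). Between the ribosomal fractions U1 differed by -0.19 (SE 0.22, adjusted p = 0.573), and by 0.08 without 80S monosome replicate 1.

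The 5 U1 genes, each 164 nt, did not hold equal counts. U1:21D, U1:95Ca and U1:95Cb, which share most of their reads, were each at 186 to 216 CPM in total RNA, U1:95Cc at 77.5 to 91.8 and U1:82Eb at 8.08 to 9.48. U1:95Cc and U1:95Cb lie 1372 bp apart inside an intron of CG34355, on its strand, and U1:21D, U1:95Ca and U1:82Eb lie outside genes. All 5 fell in both ribosomal fractions relative to total RNA, with log2 fold changes between -1.14 and -0.94 in 80S monosomes and between -1.38 and -0.98 in polysomes. The rarest, U1:82Eb, had the most negative value in both. U1:95Cc took 11.998% to 12.3% of U1 counts in total RNA, 13.5% to 13.9% in polysomes and 10.98% to 13.2% in 80S monosomes, so that the polysome libraries lay above all others.

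U2, which pairs with the branch point, was called lower as a class sum in 80S monosomes, but in polysomes only in single genes. It was at 237, 122 and 201 CPM in the 80S libraries, 571, 223 and 359 in the polysome libraries, and 732, 649.9 and 657 in total RNA. The lowest polysome library lay just below the highest 80S monosome library, so these fractions overlapped, and both were below total RNA. U2 fell by 1.87 on the log2 scale in 80S monosomes relative to total RNA (SE 0.31, 3.65-fold, adjusted p = 0.00144), a call that was lost without the filter on low counts (-1.89, adjusted p = 0.0144). The log2 fold change of polysomes against total RNA was -0.83 (SE 0.30, adjusted p = 0.0469), and -1.15 (adjusted p = 0.00876) without polysome replicate 1. That of polysomes against 80S monosomes was 1.04 (SE 0.30, adjusted p = 0.0274), and 1.31 (adjusted p = 0.00389) without polysome replicate 2.

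Counted per length, U2 lay below U1 in every 80S monosome library, with log2 ratios of -1.29, -1.24 and -1.06. In polysomes the ratios were 0.27, -0.42 and 0.03, and in total RNA -0.25, -0.22 and -0.35. All polysome libraries were thus above all 80S monosome libraries, by 1.15 in the mean, and total RNA was also above 80S monosomes, by 0.92. With 3 libraries against 3 the exact two-sided permutation test cannot go below 0.1, which was its value in both comparisons (0.158 after adjustment over the 57 tests of 19 ratios and shares).

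The copies of U2 divided into sets with different reads. U2:34ABb and U2:34ABc (2L:13215839-13216030 and 2L:13244370-13244561) shared their counts nearly evenly, at 164 to 186 and 163 to 184 CPM in total RNA. U2:14B, U2:34ABa and U2:38ABa formed the second set, at 101 to 120 CPM each, and U2:38ABb, in an intron of sick, was at 11.2 to 12.7. The pair held 50.4% to 51.2% of U2 counts in total RNA but 70.8%, 59.1% and 60.0% in 80S monosomes and 65.8%, 60.2% and 57.4% in polysomes (exact two-sided p = 0.1 for each fraction against total RNA, adjusted 0.158). U2:34ABb and U2:34ABc accordingly had the smaller log2 fold changes of 80S monosomes against total RNA, -1.53 in each (SE 0.35, adjusted p = 0.00728 and 0.00740), against -2.37 to -2.31 for the other 4. With the replicate number as a block, which pairs libraries of the same lysate, their adjusted p was 0.0107 and 0.0108. Each was lost in 8 of the 17 alternatives run, which were the block, the fit without a filter on low counts (0.0566 and 0.0574) and those without 80S monosome replicate 2 or 3, polysome replicate 3 or any 1 total RNA library (0.0120 to 0.0248). For polysomes against total RNA, U2:14B, U2:34ABa, U2:38ABa and U2:38ABb were called lower (-1.23, -1.23, -1.21 and -0.95, adjusted p = 0.00261, 0.00241, 0.00289 and 0.00919). These calls held in 14, 15, 14 and 9 of the 17 alternatives. The pair was not called (-0.54 each, adjusted p = 0.229 and 0.233).

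In polysomes relative to 80S monosomes the 4 genes outside the pair were called higher, with log2 fold changes of 1.10 for U2:14B (SE 0.25, adjusted p = 0.00805), 1.12 for U2:34ABa (SE 0.25, adjusted p = 0.00692), 1.10 for U2:38ABa (SE 0.25, adjusted p = 0.00866) and 1.42 for U2:38ABb (SE 0.26, adjusted p = 0.00255). U2:34ABb and U2:34ABc had 0.99 each (SE 0.34, adjusted p = 0.0580 and 0.0583), and the difference between the sets was not tested. With the replicate block U2:38ABb was the 1 of these called (adjusted p = 7.87e-05), while U2:14B, U2:34ABa and U2:38ABa had adjusted p of 0.0154, 0.0156 and 0.0148, and without the filter on low counts 0.0383, 0.0324 and 0.0417. Of the 17 alternatives, 10, 8 and 11 ended these 3 calls, among them the fits without each 80S monosome library and without polysome replicate 1 or 3 (adjusted p from 0.0106 to 0.0348). That of U2:38ABb was lost without 80S monosome replicate 2 (1.24, adjusted p = 0.0121) or polysome replicate 3 (1.44, 0.01100). U2:38ABb, the rarest copy, was at 1.82, 1.78 and 3.15 CPM in the 80S libraries and at 8.43, 4.49 and 6.06 in polysomes.

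**Figure D2:**
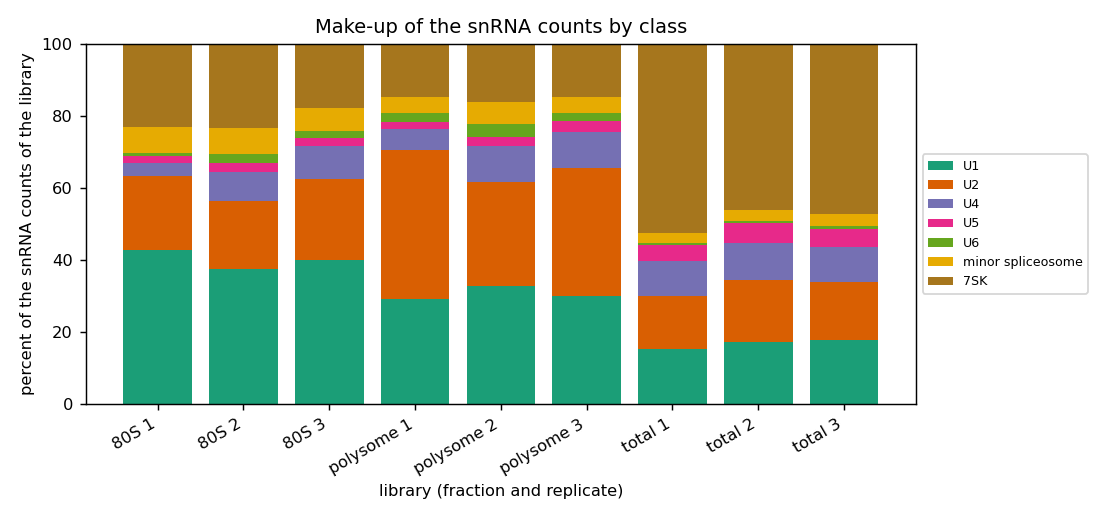
Percent of the snRNA counts of each library that fall on each class, for replicates 1 to 3 of 80S monosomes, polysomes and total RNA. 7SK takes 45.8% to 52.2% in total RNA and 14.5% to 23.3% in the ribosomal fractions, and U1 takes 15.2% to 17.7% in total RNA and 29.3% to 42.7% there; U7 and LU are too rare to be drawn.

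U4 and U5, partners in the tri-snRNP, fell in both ribosomal fractions. U4 was at 42.4, 53.3 and 80.4 CPM in the 80S libraries, 82.1, 78.3 and 98.4 in the polysome libraries, and 467, 396 and 390.5 in total RNA. Its log2 fold change against total RNA was -2.83 (SE 0.20, 7.09-fold lower, adjusted p = 9.72e-06) in 80S monosomes and -2.28 (SE 0.20, 4.85-fold lower, adjusted p = 2.49e-05) in polysomes. For polysomes against 80S monosomes it was 0.55 (SE 0.19, adjusted p = 0.0607), a difference that DESeq2 called (0.59, adjusted p = 0.00736), as did the fit without 80S monosome replicate 3 (0.84, adjusted p = 0.00360). Nearly all U4 counts, 94.7% to 96.6% in every library, were on U4:39B (2L:21215036-21215178, minus strand), which lies in an intron of Atg18b. U4:38AB, in an intron of sick, was at 2.26 to 3.77 CPM in the ribosomal fractions and 19.5 to 24.6 in total RNA and fell in both (log2 fold changes -3.10 and -2.71, SE 0.15). U4:25F had 1 read in all 9 libraries and was not tested.

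U5 aligns the exons during both steps of splicing, and its 7 genes differ in length from 110 to 131 nt. Summed, they were at 24.1, 16.7 and 21.4 CPM in the 80S libraries, 25.9, 18.7 and 32.1 in the polysome libraries, and 221, 203 and 211 in total RNA. U5 fell by 3.36 on the log2 scale (SE 0.19, 10.3-fold, adjusted p = 1.85e-06) and by 3.05 (SE 0.19, 8.30-fold, adjusted p = 2.22e-06) relative to total RNA. Between the ribosomal fractions the libraries overlapped (log2 fold change 0.31, SE 0.18, adjusted p = 0.246).

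All 7 U5 genes fell in both ribosomal fractions, with log2 fold changes between -4.03 and -3.17 in 80S monosomes and between -3.61 and -2.83 in polysomes. U5:63BC (3L:3090801-3090923), the most abundant, was at 102 to 110.05 CPM in total RNA and 8.94 to 18.1 in the fractions. In total RNA U5:34A was at 29.3 to 34.1 CPM, U5:14B and U5:38ABb at 17.6 to 20.5, U5:23D at 13.0 to 13.9, and U5:35D and U5:38ABa at 10.7 to 11.1. U5:63BC held 49.9% to 51.3% of U5 counts in total RNA, and more in every library of 80S monosomes (59.4%, 53.7% and 58.9%) and polysomes (55.3%, 54.7% and 56.4%). The largest falls in 80S monosomes were those of the rare U5:38ABa and U5:35D (-4.03 and -4.02), and the smallest those of U5:63BC and U5:34A (-3.17 and -3.25). Whether copies differ from each other was tested only through the share of U5:63BC (exact two-sided p = 0.1 against total RNA, adjusted 0.158).

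U6, the catalytic snRNA, was the class with the highest polysome level relative to total RNA. It was at 7.95, 15.6 and 15.9 CPM in the 80S libraries, at 34.4, 28.0 and 23.0 in the polysome libraries, and at 33.8, 26.5 and 28.2 in total RNA. Every 80S monosome library was below every other library, and polysomes overlapped with total RNA. U6 fell by 1.14 on the log2 scale in 80S monosomes relative to total RNA (SE 0.23, 2.20-fold, adjusted p = 0.00379) and was higher in polysomes than in 80S monosomes by 1.08 (SE 0.23, adjusted p = 0.00572). Polysomes and total RNA differed by -0.06 (SE 0.22, adjusted p = 0.859). With the replicate number as a block the first 2 calls were lost, at adjusted p = 0.0492 (-1.11, SE 0.32) and 0.0685 (1.04, SE 0.33). The call against 80S monosomes was also lost without 80S monosome replicate 3 (1.23, adjusted p = 0.0101) or polysome replicate 1 or 2 (0.99 and 1.08, with 0.0167 and 0.0139) and without the filter on low counts (1.07, 0.0174), and the call of 80S monosomes against total RNA without total RNA replicate 1 (-1.01, 0.0195).

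The 3 U6 genes lie in tandem, 497 and 416 bp apart, between 24556088 and 24557321 on the plus strand of 3R, the first of them (U6:96Aa) within an intron of Esyt2. Each is 107 nt long and they had nearly equal counts, as even splitting of shared reads gives. U6:96Aa was at 2.67, 5.42 and 5.32 CPM in the 80S libraries and at 11.8, 9.93 and 7.89 in polysomes. U6:96Aa and U6:96Ab were called higher in polysomes than in 80S monosomes, with log2 fold changes of 1.09 and 1.05 (adjusted p = 0.00674 and 0.00591), and remained so with the replicate block (0.00985 and 0.00261). U6:96Ac, at 1.04, had an adjusted p of 0.0110. The blocked fit thus kept both of these genes although it lost their class sum. Both calls were lost without 80S monosome replicate 2 or 3 or polysome replicate 1 or 2 (0.0103 to 0.0184), and that of U6:96Aa also without polysome replicate 3 (0.0101) and in the fit of the 6 libraries compared (0.0112).

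The ratio of U4 to U6, which enter the spliceosome paired, was lower in every library of the ribosomal fractions than in total RNA. Per length the log2 ratio was 3.37, 3.49 and 3.38 in total RNA, 1.999, 1.35 and 1.92 in 80S monosomes, and 0.83, 1.07 and 1.68 in polysomes. All ribosomal libraries were below all total RNA libraries, with mean differences of -1.65 and -2.22 (exact two-sided p = 0.1, adjusted 0.158), and the ribosomal fractions overlapped. How well RNAs of about 100 nt are recovered by these libraries, relative to longer ones, was not tested. U5 relative to U4 was lower in polysomes (-1.45, -1.85 and -1.40) than in total RNA (-0.87, -0.75 and -0.68), and 80S monosomes (-0.60, -1.47 and -1.69) overlapped with both.

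**Figure D3:**
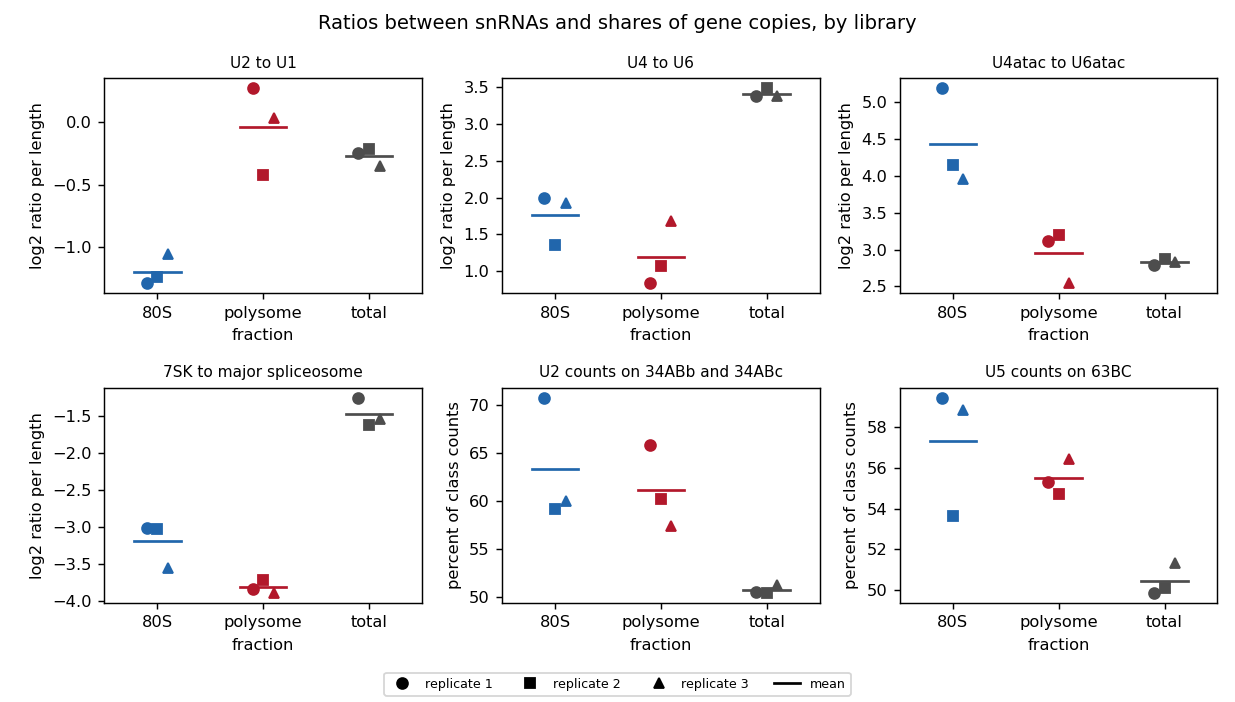
Per-library log2 ratios per length of U2 to U1, U4 to U6, U4atac to U6atac and 7SK to the summed U1, U2, U4, U5 and U6, and the percent of U2 counts on 34ABb and 34ABc and of U5 counts on 63BC, with a line at each mean of 3. U4 to U6 lies at 3.37 to 3.49 in total RNA and at 0.83 to 1.999 in the ribosomal fractions, and U2 to U1 is below -1 only in 80S monosomes.

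The minor spliceosomal snRNAs are each a single gene with counts that were whole or nearly so, and they did not move alike. Summed, they were at 85.8, 46.6 and 59.0 CPM in the 80S libraries, 60.99, 46.5 and 44.0 in the polysome libraries, and 140.3, 115.5 and 134 in total RNA. The log2 fold change against total RNA was -1.03 (SE 0.20, adjusted p = 0.00301) in 80S monosomes and -1.37 (SE 0.20, adjusted p = 0.000499) in the polysome libraries, and that of polysomes against 80S monosomes was -0.34 (SE 0.20, adjusted p = 0.244), and -0.080 (adjusted p = 0.728) without 80S monosome replicate 1. The call in 80S monosomes was lost without 80S monosome replicate 3 (-0.98, adjusted p = 0.0140) and without total RNA replicate 1 or 3 (-0.96 and -1.06, with 0.0135 and 0.0105). With the replicate block it held (-1.07, SE 0.099, adjusted p = 2.44e-07).

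U4atac and U6atac pair with each other as U4 and U6 do. U4atac, in an intron of cno and the most abundant of the 4, was at 46.8, 33.6 and 41.0 CPM in the 80S libraries, 39.5, 30.5 and 30.7 in the polysome libraries, and 94.5, 82.5 and 87.0 in total RNA. U6atac was at 0.78, 1.16 and 1.61 CPM in the 80S libraries (15 to 72 reads), at 2.77, 2.02 and 3.19 in polysomes and at 8.26, 6.86 and 7.43 in total RNA, with no overlap between any of the fractions. Against total RNA U4atac had log2 fold changes of -1.12 (SE 0.13, adjusted p = 0.000260) in 80S monosomes and -1.40 (SE 0.14, adjusted p = 5.01e-05) in polysomes. U6atac had -2.60 (SE 0.24, adjusted p = 4.09e-05) and -1.51 (SE 0.23, adjusted p = 0.000626) in the same order. In polysomes against 80S monosomes U6atac had a log2 fold change of 1.09 (SE 0.26, adjusted p = 0.0106), which was called with the replicate block (adjusted p = 0.000748). U4atac had -0.27 (SE 0.14, adjusted p = 0.174). The log2 ratio of U4atac to U6atac per length was 5.18, 4.14 and 3.95 in 80S monosomes, above all polysome libraries (3.11, 3.20 and 2.54) and all total RNA libraries (2.79, 2.87 and 2.83), whereas U4 to U6 was highest in total RNA.

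U11 and U12, which take the places of U1 and U2 on minor introns, were the only members tested that were not called lower in 80S monosomes. U11 was at 29.05, 10.4 and 13.9 CPM there, 14.2, 11.9 and 8.38 in the polysome libraries, and 30.9, 21.7 and 32.6 in total RNA. U12 was at 9.21, 1.40 and 2.48 CPM, at 4.46, 2.12 and 1.74, and at 6.70, 4.43 and 6.55 in the same order. In both, 80S monosome replicate 1, the library with high 7SL RNA, was far above the other 80S monosome libraries. The part of 7SL RNA in this was not tested. Log2 fold changes of 80S monosomes against total RNA were -0.70 (SE 0.32, adjusted p = 0.124) for U11 and -0.54 (SE 0.55, adjusted p = 0.496) for U12, and without this library -1.22 (adjusted p = 0.00470) and -1.59 (adjusted p = 0.0119). For polysomes against total RNA they were -1.32 (SE 0.34, adjusted p = 0.01004) and -1.17 (SE 0.59, adjusted p = 0.137). For polysomes against 80S monosomes they were -0.62 (SE 0.34, adjusted p = 0.215) and -0.63 (SE 0.61, adjusted p = 0.488), and without 80S monosome replicate 1 -0.11 (adjusted p = 0.763) and 0.41 (adjusted p = 0.472).

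U7 and LU were the rarest. U7, in an intron of Eip63E and only 71 nt long, had 9, 7 and 1 reads in total RNA, 0, 1 and 6 in the 80S libraries and 1, 2 and 6 in the polysome libraries. It was not tested, and no difference was detectable at this depth, where 3 reads correspond to 0.0670 to 0.231 CPM. LU, in an intron of FASN2, was at 0.36, 0.75 and 2.19 CPM in the 80S libraries, 0.69, 1.72 and 2.13 in the polysome libraries, and 7.10, 9.35 and 8.76 in total RNA. Its log2 fold changes against total RNA were -2.80 (SE 0.44, adjusted p = 0.00108) in 80S monosomes and -2.39 (SE 0.44, adjusted p = 0.00186) in polysomes. Its neighbour U5:23D, 1820 bp away within FASN2, had -3.86 and -3.49 (SE 0.25 each).

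Gene by gene, 29 of the 31 passed the filter on low counts. In 80S monosomes 27 of 29 were called lower than in total RNA and 0 higher (8.95% of the 13076 features were lower and 6.68% higher), with log2 fold changes between -4.03 and -0.54 and a median of -2.33, against -0.02 over all features. In polysomes 22 of 29 were lower and 0 higher than in total RNA (12.2% of all features were lower and 10.4% higher), with a median of -1.32 against -0.05. Those not called were U2:34ABb, U2:34ABc, the 3 U6 genes, U11 and U12. In polysomes 6 were higher than in 80S monosomes and 0 lower (7.87% of all features were higher and 4.31% lower), namely 4 U2 genes and 2 U6 genes, with a median over the 29 of 0.42 against -0.08. Without total RNA replicate 1 the first 2 counts were 17 and 14, and the last was 0, 3, 1 and 1 without 80S monosome replicate 2 or 3 or polysome replicate 1 or 3. Copies of a class share reads, so all these counts and medians, and those by overlap of libraries below, are not over independent genes. The 6 come from 2 classes.

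**Figure D4:**
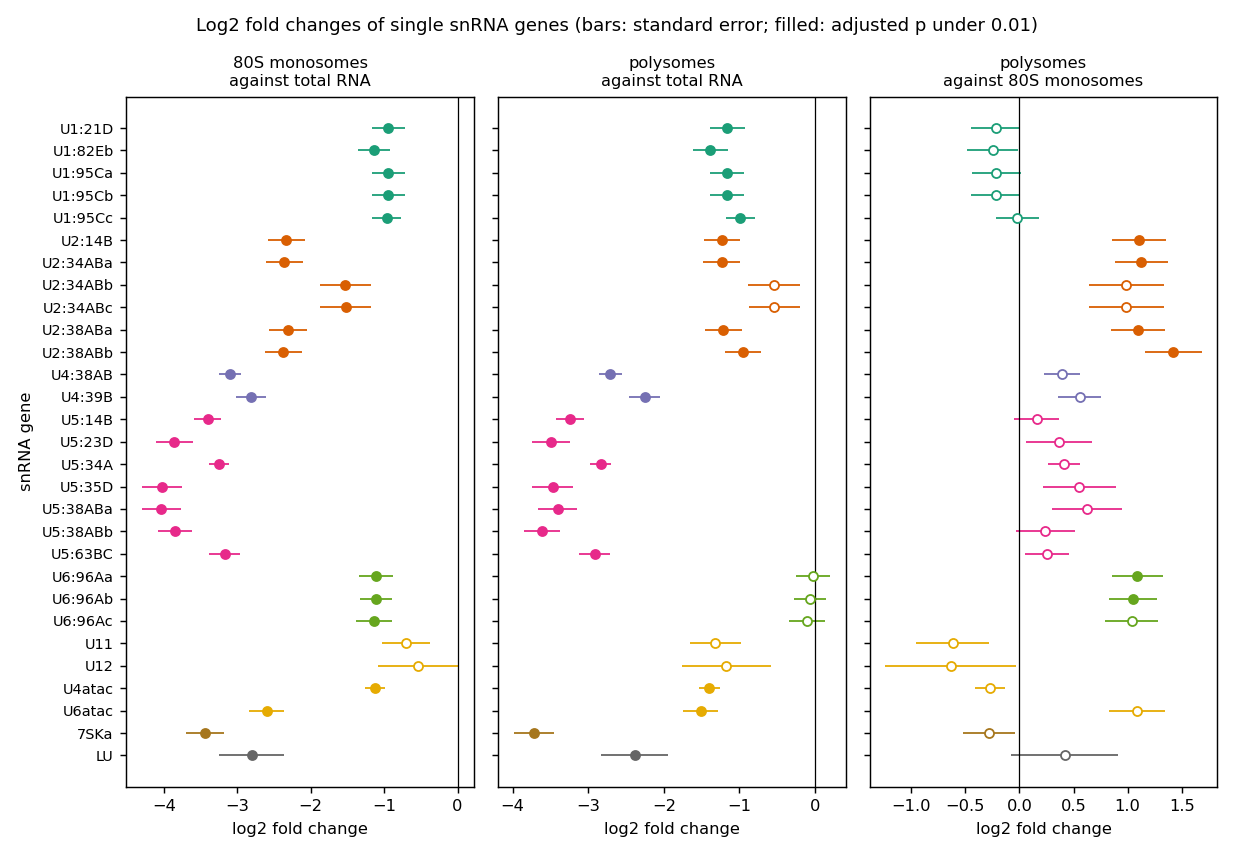
Log2 fold change of each of the 29 tested snRNA genes, coloured by class, in the 3 comparisons, with bars for the standard error and filled points where the adjusted p is under 0.01. All 29 points lie below 0 in both comparisons with total RNA, with U5 and 7SKa farthest, and in polysomes against 80S monosomes U2 and U6 genes and U6atac lie near 1.

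By whether libraries overlapped, 27 of 29 genes had all 80S monosome libraries below all total RNA libraries (25.7% of all features) and 23 of 29 had all polysome libraries below (28.9% of all features). In 10 of 29 all polysome libraries were above all 80S monosome libraries (15.9% of all features), and in 0 were they below (20.6% of all features). The 10 were the 6 called genes with U6:96Ac, U6atac, U4:38AB and U5:34A.

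Levels per length put the classes in a different order in each fraction. In total RNA the order was 7SK (4658 ± 992 CPM per kb), U1 (4285 ± 310), U2 (3541 ± 238), U4 (2924 ± 300), U5 (1715 ± 70), the minor class (755 ± 67) and U6 (275 ± 36, SD, n = 3), and 7SK and U1 lay within 1 SD of each other. Replicate 1 alone had 7SK above U1 (5779 against 4542 CPM per kb). In 80S monosomes U1 (2229 ± 760) and U2 (972 ± 307) came first. After them came 7SK (430 ± 145), U4 (411 ± 137) and the minor class (348 ± 90), with libraries that overlapped. U5 (168 ± 31) and U6 (123 ± 42) were last, and theirs also overlapped. In polysomes U2 (2001 ± 914) and U1 (1951 ± 469) came first, with libraries that overlapped, and U4 (604 ± 75) came next. Then 7SK (354 ± 92), the minor class (291 ± 48), U6 (266 ± 54) and U5 (207 ± 54) followed, each with libraries that overlapped those of its neighbour. Compared within libraries, 7SK lay above the minor class in every 80S monosome and polysome library.

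The other small nuclear and nucleolar RNAs of the table moved in the same direction. All snRNAs summed had log2 fold changes of -2.25 (SE 0.24, adjusted p = 0.000220) in 80S monosomes and -2.02 (SE 0.24, adjusted p = 0.000183) in polysomes against total RNA. Summed snoRNAs, which guide modification of ribosomal RNA in the nucleolus, had -1.83 and -1.59 (SE 0.11 each, adjusted p = 9.95e-06 and 7.45e-06). Summed scaRNAs, which guide modification of snRNAs in Cajal bodies, had -0.71 in each (SE 0.13, adjusted p = 0.00309 and 0.00202), calls that were lost without total RNA replicate 1 (-0.68 and -0.61, with 0.0146 and 0.0145) or 3 (-0.64 and -0.65, with 0.0168 and 0.0112). Of 160 snoRNA genes tested, 121 were called lower in monosomes and 96 in polysomes (8.95% and 12.2% of all features), with medians of -1.98 and -1.42. The difference between these groups was not tested.

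Other non-coding RNAs set beside the snRNAs ranged widely. RNase P RNA, which trims tRNA precursors, had log2 fold changes of -3.60 (SE 0.24) in 80S monosomes and -5.21 (SE 0.27) in polysomes against total RNA, and RNase MRP RNA had -2.87 and -3.08 (SE 0.30 each), all past the threshold. The dosage compensation RNAs differed from each other. The RNA roX2 fell in both (-2.73, SE 0.18, and -4.13, SE 0.19), whereas roX1 was higher in 80S monosomes (0.97, SE 0.21, adjusted p = 0.00640) and lower in polysomes (-0.90, SE 0.21, adjusted p = 0.00702). Of 16 alternatives 6 ended the first of these roX1 calls, with values of 0.74 without 80S monosome replicate 1 (adjusted p = 0.0202) and 0.79 without total RNA replicate 2 (0.0372), and 9 ended the second, with -0.66 without total RNA replicate 1 (0.0461). The stress RNA Hsromega, counted over all its transcripts, had -0.61 (SE 0.18, adjusted p = 0.0228) and 0.06 (SE 0.17, adjusted p = 0.808), and with the replicate block the former was called (adjusted p = 2.35e-06). The cytoplasmic 7SL RNA had -0.16 (SE 0.42, adjusted p = 0.811) and -1.09 (SE 0.43, adjusted p = 0.0630). Without 80S monosome replicate 1 its first value was -0.66 (adjusted p = 0.279), and without polysome replicate 1 its second was -1.68 (adjusted p = 0.00899). RNase P RNA, roX1 and roX2 were lower in polysomes than in 80S monosomes (-1.61, -1.87 and -1.40). In that direction 0 of the 29 snRNA genes were called, against only 4.31% of all features.

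The mRNAs of snRNP proteins and snRNA biogenesis factors had medians near those of all features. Of 80 listed genes 75 were tested, and against total RNA 7 were higher and 3 lower in 80S monosomes (6.68% and 8.95% of all features), with a median log2 fold change of 0.03. In polysomes 6 were higher and 1 lower (10.4% and 12.2%), with a median of -0.14, and relative to 80S monosomes 1 was higher and 4 were lower (7.87% and 4.31%), with a median of -0.17. With the replicate block the counts were 13 and 7, 10 and 10, and 3 and 10 (backgrounds 15.3% and 19.2%, 17.9% and 23.4%, and 12.8% and 14.2%). Counts of calls moved with single libraries. For 80S monosomes against total RNA they were 5, 6 and 3 without each 80S monosome library, 6 without polysome replicate 3 and 4, 1 and 1 without each total RNA library. For polysomes against total RNA they were 13 without 80S monosome replicate 1, 3 without polysome replicate 3, and 3 and 4 without total RNA replicate 2 and 3, and between the ribosomal fractions 0 to 4. Of the calls of single genes that follow, those of Sf3b6 in both fractions and of Brr2 and CycT in polysomes held in all 16 alternatives. Each of the others was lost in 2 to 12, leaving aside that of Sf3b2 in 80S monosomes, which was not followed through them. The lists are short, so beside these shares over all features a few calls are not read as a trait of a list.

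Among Sm core proteins, 1 of 7 was called lower in 80S monosomes (8.95% of all features were). This gene, SmD1, was at 2.14 ± 0.68 CPM there, 4.77 ± 0.47 in polysomes and 4.71 ± 1.31 in total RNA (SD, n = 3). Its log2 fold change was -1.10 against total RNA in 80S monosomes (adjusted p = 0.00803) and 1.12 for polysomes against 80S monosomes (adjusted p = 0.00944). Of the 3 U1 snRNP proteins, the 70-kDa protein gene snRNP-U1-70K was higher in 80S monosomes by 0.81 (SE 0.14, adjusted p = 0.00215). Of 11 U2 snRNP proteins, Sf3b1 and Sf3b2 rose in 80S monosomes against total RNA (0.52 and 0.43) and the small subunits Sf3b5 and Sf3b6 fell (-1.43 and -1.18). In polysomes Sf3b3 and again Sf3b2 were higher (0.54 and 0.41) and Sf3b6 lower (-1.43). Of 10 proteins of U4/U6 and U5, the helicase gene Brr2 was higher in both fractions (0.37 and 0.44) and Prp3 in 80S monosomes (0.41). None of the 5 LSm genes found, of 9 listed, and of the 6 U7 and histone mRNA end genes was called in any comparison.

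Among 10 genes of snRNP assembly and export, Gem3 and rig, both of the SMN complex that loads Sm rings, were lower in polysomes than in 80S monosomes (-0.56 and -0.52, adjusted p = 0.00355 and 0.00857), and rig was higher in 80S monosomes than in total RNA (0.54, adjusted p = 0.00545). CycT, a subunit of P-TEFb, was the 1 of 5 genes of the 7SK list to be called. It was higher in 80S monosomes (0.48, adjusted p = 0.00543) and in polysomes (0.59, adjusted p = 0.00132) than in total RNA (6.68% and 10.4% of all features were). Of 19 genes of snRNA transcription and 3′ end formation, Pbp49 and Pbp95, subunits of the complex that binds snRNA promoters, were lower in polysomes than in 80S monosomes (-0.67 and -0.81), and the Integrator subunits IntS4 and IntS6 were higher in polysomes than in total RNA (0.53 each).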

How the data were processed

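Per the labels and methods, RNA of fly heads was depleted of ribosomal RNA and made into stranded libraries. The authors trimmed single reads with Trimmomatic 0.33 (quality 20, at least 25 bp), mapped them with STAR 2.7.10a to BDGP6.32 and assigned them per gene, and in a second table per transcript, with featureCounts 2.0.1. Reads on several places or features of a strand were divided, so the deposited values are estimated counts, not normalized. No snRNA gene overlapped an exon of another gene on its strand, and 11 lie inside such a gene.

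Symbols, types and coordinates came from the Ensembl BDGP6.54 annotation (release 115, same assembly), which matched 23851 of 23932 rows. Counts were rounded and fitted in R 4.3.3 with edgeR 4.0.16 (filterByExpr, TMM, robust quasi-likelihood over all 9 libraries, no block, threshold 0.01) on the gene table, on a table with each class summed and on one with all snRNAs, snoRNAs and scaRNAs summed. A standard error is the estimate over the root of its F statistic. Ratios and shares were tested by exact permutation in SciPy 1.17.1. The fit was tested on simulated data with unpaired libraries and changes only in well-counted genes, so paired libraries and rare genes were not covered. It recovered 96 of 100 genes changed by a log2 fold change of 1 and 100 of 100 changed by 2, with 3 false calls.

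Replicates carry the same numbers in all fractions, and total RNA was taken from the gradient's own lysate. After subtracting each fraction's mean, all 9 pairs with equal numbers correlated (0.18 to 0.42), so the numbers pair the libraries. The 18 other pairs (-0.33 to -0.0042) are no separate evidence, because the subtraction pushes them down where equal numbers correlate. Nothing says that replicates are separate cultures of flies, and p-values measure the spread between these libraries.

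Named are all classes, every snRNA gene with a mean of at least 1 CPM in a fraction, at most 3 called genes of each list with the largest change in the contrast described, and the reference RNAs. Members, lists and tests were chosen with earlier results of these data known. Alternatives were DESeq2 1.42.0 with a local fit, other scalings and filters, the 6 libraries compared, the replicate block, transcript counts and each library left out.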

Additional observations from a re-analysis of the deposited data

How the results depend on the processing

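Every comparison of a class, snRNA gene or sum was recomputed under 17 alternatives. The class sums of 7SK, U4 and U5 kept their calls against total RNA in all of them. Between polysomes and 80S monosomes the number of classes called was 1, but 2 in DESeq2, 0 without the filter on low counts and 0 with the replicate block, and 0 to 1 with a library left out. There U4 had 0.59 in DESeq2, U6 had 1.07 (adjusted p = 0.0174) without a filter and 1.04 with the replicate block, and with a library left out U1 ranged from -0.42 to 0.077, U2 from 0.71 to 1.31, U4 from 0.36 to 0.84, U6 from 0.84 to 1.23 and 7SK from -0.44 to 0.022. For 80S monosomes against total RNA, U1 was not called with relative log expression scaling (-0.93), scaling on nuclear protein-coding genes (-0.92), no filter (-0.97) or at least 1 CPM in 3 libraries (-0.94), U2 not without a filter (-1.89, adjusted p = 0.0144) and U6 not with the replicate block (-1.11). With a library left out the classes called were 5 to 8, and U1 ranged from -1.22 to -0.73, U6 from -1.29 to -0.90 and the minor class from -1.30 to -0.85. For polysomes against total RNA, U6 turned to 0.0020 with relative log expression scaling and 0.040 with scaling on protein-coding genes, LU was not called without a filter (-2.40, adjusted p = 0.0111), and with a library left out U1 ranged from -1.27 to -1.01, U2 from -1.15 to -0.56 and U6 from -0.14 to 0.13. The cause was not tested.

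Single genes called were 0 to 5, 17 to 28 and 14 to 23 with a library left out (polysomes against 80S monosomes, 80S monosomes and polysomes against total RNA), and 2 for the first in the fit of its 6 libraries. With the replicate block they were 4, 25 and 22. Apart from the calls given beside the results, the replicate block changed no call of a class, snRNA gene or sum. Among classes, snRNA genes and sums, signs turned in polysomes against 80S monosomes or total RNA, for values that were not called. In the former, U1:95Cc (-0.021) became 0.016 in DESeq2, 0.030 and 0.051 in the 2 scalings, 0.0060 with 1 CPM, 0.038 in the 6 libraries and 0.053 in transcripts, and summed scaRNAs (-0.0045) became 0.036, 0.050 and 0.065, 0.023, 0.061 and 0.058, and 0.00044 with the replicate block. In the latter, U6:96Aa became 0.017 in DESeq2 and 0.032 and 0.068 in the 2 scalings, and U6:96Ab 0.029 in that on protein-coding genes. With a library left out the ranges of values whose sign turned were -0.47 to 0.022 for 7SKa, -0.45 to 0.063, 0.064 and 0.061 for U1:21D, U1:95Ca and U1:95Cb, -0.21 to 0.14 for U1:95Cc, -0.042 to 0.30 for U5:14B, -0.17 to 0.70 for U5:23D, -0.085 to 0.89 for U5:35D, -0.14 to 0.59 for U5:38ABb, -1.10 to 0.41 for U12 and -0.13 to 0.092 for scaRNAs, and against total RNA -0.14 to 0.15, -0.19 to 0.12 and -0.23 to 0.086 for U6:96Aa, U6:96Ab and U6:96Ac. Over all features, the share of higher among calls in polysomes against 80S monosomes was 64.6%, but 74.6% and 76.1% in the 2 scalings and from 47.4% (replicate block) to 83.4% (the 6 libraries) over all alternatives, and in polysomes against total RNA 46.2%, but 54.3% and 60.5%. Genes of the snRNP and biogenesis lists, not recomputed on transcripts, numbered 5 between the ribosomal fractions, but 10 in DESeq2, 3 in both scalings and with 1 CPM, 1 in the 6 libraries, 13 with the replicate block and 0 to 4 with a library left out. Against total RNA they were 10 in 80S monosomes (20 with the block, 1 to 12 with a library left out) and 7 in polysomes (16 in DESeq2, 12 with scaling on protein-coding genes, 20 with the block, 3 to 13 with a library left out). With a library left out, signs also turned for RNase MRP RNA between the fractions (-0.47 to 0.067), 7SL RNA in 80S monosomes (-0.66 to 0.17) and Hsromega in polysomes (-0.096 to 0.25) against total RNA. Depth limits U7 and U4:25F.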
